A study of Mus musculus with 4 samples.

Results

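GATA factors are zinc finger proteins that bind the sequence GATA in DNA, and the FOG proteins encoded by Zfpm1 (FOG1) and Zfpm2 (FOG2) bind their amino-terminal finger and act as coactivators or corepressors. The 7 genes described here are the GATA factor genes Gata2, Gata3, Gata4, Gata5 and Gata6 and both FOG genes. They were chosen by name, and every probe that carries one of these names in the array design was taken, which gave 10 of 39429 gene probes and 7 of 29924 gene names. In the urogenital system Gata3 is required in the nephric duct and ureteric bud, where it maintains Ret expression, and Gata2 is required for normal urogenital morphogenesis. Gata4 and Gata6 act in the gonad, the heart and smooth muscle, Gata5 acts in the heart and gut, and FOG1 is best known as the partner of GATA1 in blood cells and FOG2 as the partner of GATA4 in heart and gonad.

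The data are 4 two-colour Agilent arrays of ureters dissected from wild-type NMRI mouse embryos at E12.5. The ureters were kept for 18 h as explants in medium with 10 µM IWP-2, an inhibitor of the enzyme Porcupine that WNT ligands need for their secretion, or in medium with the solvent DMSO (2:1000) as control. Each array compared 1 pool of treated with 1 pool of control ureters, so that n is 4 throughout, and the treated RNA was labelled red on arrays 1 and 3 and green on arrays 2 and 4. The embryos' sex was not determined, the drug acts on all cells of the explant, and the same cultured ureter is the background of both groups. The labels number the arrays as replicates but do not say whether the pools came from separate litters. The p-values and intervals of the per-gene test rest on the spread between these 4 arrays, which may be technical in part. A difference between the dye orders is fitted and left out of that spread, and each gene's variance is drawn towards that of all genes. The intervals therefore do not cover the full spread of the 4 arrays, which the printed SD gives.

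Over the 8 channels, gene spots had a median raw intensity of 368.4 to 711.2 above a median local background of 28 to 77, and 0 gene spots were saturated. The log2 ratios of different arrays correlated with Pearson r of 0.62 to 0.83 across the 22455 genes tested. In the control pools 7 of 7 epithelium markers and 8 of 8 mesenchyme markers stood well above background on every array. The same held for 10 of 10 smooth muscle genes. It also held for all tested genes of the other marker lists, 7 for gonad and adrenal and 6 for heart muscle among them. These counts therefore do not establish the tissue. In whole ureters fewer cells of a type and less RNA per cell cannot be told apart.

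With IWP-2, Gata3 rose and Gata2 fell, and Gata6 showed a small decline. Expressed as percent of control, Gata3 stood at 147.5%, Gata2 at 74.5% and Gata6 at 90.8%, while the changes of Gata4, Gata5, Zfpm1 and Zfpm2 did not pass the test. Ratios of treated over control were tested in limma on the log2 scale with a dye term for each gene, with Benjamini-Hochberg adjustment over all genes tested and an adjusted p of 0.05 as the threshold. By this test 2 of 7 genes were lower, where 15% of all genes were, and 1 of 7 was higher, where 18.1% of all genes were. The number of members past the test was therefore near what the whole array would give. Their median change was -0.04 on the log2 scale, against 0.00 over all genes tested. Taken probe by probe, 3 of 10 were lower (Gata2, Gata6 and 1 probe of Zfpm1) and 1 of 10 was higher (Gata3), against 15.9% and 16.8% of the 29933 probes tested. All 10 probes were well above background in both channels of all 4 arrays, so none had only a bound.

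**Figure D1:**
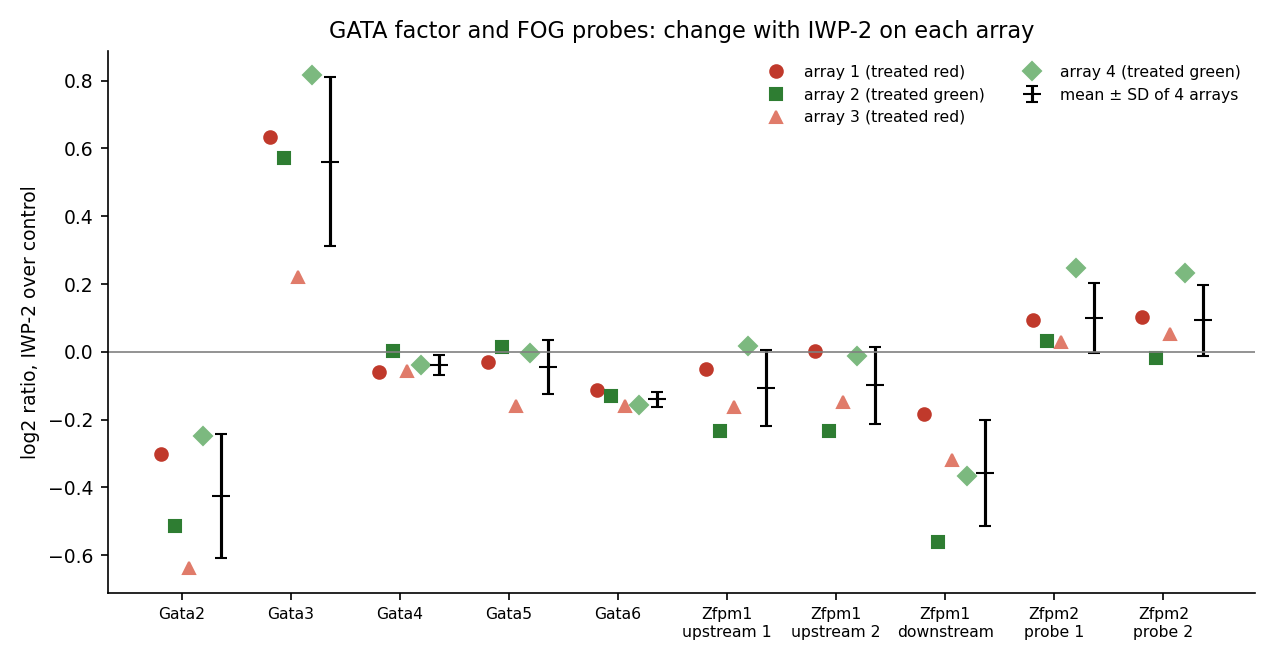
Log2 ratio of IWP-2 over control (vertical axis) for each of the 10 probes, with 1 marker per array and the mean ± SD of the 4 arrays in black. Gata3 lay above 0 on all 4 arrays, and Gata2, Gata6 and the downstream Zfpm1 probe lay below 0 on all 4.

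Gata3 is measured by 1 probe, which the array files place at chr2:9779551-9779610 of the mm9 build, on the minus strand. Its middle 30 bases are printed to show what was hybridised, and those of the Gata2 probe follow for the same reason.
Gata3: ggattaaagtatggagatacagaagaaacc
Gata2: acccgctgatgagtggttttattttgaaac
The Gata2 probe lies at chr6:88156362-88156421 of mm9, on the plus strand. Exons and untranslated regions were not assigned, because annotation of mm9 was not used here. Each of these probes gives 1 value for its gene and cannot separate its transcripts.

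The normalised log2 level of Gata3 in the control pools was 14.20, 14.48, 14.71 and 14.19 on arrays 1 to 4. In the IWP-2 pools it was 14.83, 15.06, 14.93 and 15.003. The treated pools were all above the control pools, and the groups did not overlap. How many of all probes tested separate in this way was not counted, here or for the other members. The log2 ratio of IWP-2 over control was 0.63, 0.57, 0.22 and 0.82 on arrays 1 to 4, with a mean of 0.56 ± 0.25 (SD, n = 4). The limma interval at 95% confidence ran from 0.38 to 0.75, with an adjusted p of 0.00295. The direction was shared by all 4 arrays, but the size was not: array 3 gave the smallest rise, and there the control pool had the highest Gata3 level of the 4. That control level enters the ratio, so the smaller rise is not a separate observation. Of the 4068 genes that rose, 257 rose by more than Gata3.

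For Gata2 the control pools gave a normalised log2 level of 14.998, 15.27, 15.34 and 14.93 on arrays 1 to 4. The IWP-2 pools gave 14.70, 14.75, 14.71 and 14.68. Every treated pool was below every control pool, and the treated pools lay closer together (SD 0.03) than the control pools (SD 0.20). The narrower treated spread was not particular to Gata2. It held for every other member probe except that of Gata4, and for Gata3 the SDs were 0.10 and 0.25. The log2 ratio was -0.30, -0.51, -0.64 and -0.25 on arrays 1 to 4, with a mean of -0.43 ± 0.18 (SD, n = 4). Its limma interval ran from -0.60 to -0.26, with an adjusted p of 0.00589. The decline was largest on the arrays whose control pools were highest, which were arrays 2 and 3. With treated levels this close together, that follows from the control levels, against which the ratio is taken. Of the 3360 genes that fell, 755 fell by more than Gata2.

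Gata2 and Gata3 thus moved in opposite directions in the same pools. The change of Gata2 minus that of Gata3 was -0.93, -1.09, -0.86 and -1.06 on the log2 scale on arrays 1 to 4, with a mean of -0.99 ± 0.11 (SD, n = 4). The difference was negative on 4 of 4 arrays and varied less between arrays than either gene did alone. An exact two-sided sign-flip permutation test gave p = 0.125, which is the smallest value 4 arrays allow, and the value stayed at 0.125 after adjustment over the 4 pairs compared. The array with the smallest rise of Gata3, array 3, was the one with the largest decline of Gata2. On array 3 both genes had their highest control level (15.34 for Gata2 and 14.71 for Gata3). A control level that is high for both lowers both ratios and cancels in their difference. The smaller spread of the difference and the array 3 pattern are thus not observations separate from the control levels.

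Gata6, which takes part in smooth muscle differentiation and in heart and endoderm development, gave control log2 levels of 15.23, 15.26, 15.32 and 15.34. Its IWP-2 levels were 15.12, 15.13, 15.16 and 15.18. The groups did not overlap, although the gap between them was narrow. The log2 ratio of -0.11, -0.13, -0.16 and -0.16 on arrays 1 to 4 averaged -0.14 ± 0.02 (SD, n = 4), the smallest SD of the 7 genes. The adjusted p was 0.0334 in limma, and the interval ran from -0.23 to -0.05. Of the 3360 genes that fell, 3180 fell by more. The call did not hold when any 1 array was left out (adjusted p of 0.0808, 0.0924, 0.131 and 0.123 without arrays 1 to 4).

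Gata4 was dim. Its probe, at chr14:63817858-63817917 of mm9 on the minus strand, gave a raw control intensity of 1.62 to 2.09 times the local background. The log2 ratio was -0.06, 0.003, -0.06 and -0.04 on arrays 1 to 4, with a mean of -0.04 ± 0.03 (SD, n = 4) and an adjusted p of 0.484. Its limma interval ran from -0.13 to 0.05. The background offset draws the ratio of such a dim probe towards 0, so its change may be understated. Gata4 minus Gata6 was above 0 on 4 of 4 arrays, with a mean of 0.10 ± 0.04 (exact sign-flip permutation p = 0.125). This did not hold with the processed signals of Feature Extraction, which gave 0.07 ± 0.16 (exact sign-flip permutation p = 0.5). There Gata4 lay below Gata6 on array 1 (-0.12 against -0.07) and array 3 (-0.17 against -0.10).

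Gata5 gave a log2 ratio of -0.03, 0.02, -0.16 and -0.002 on arrays 1 to 4, with a mean of -0.04 ± 0.08 (SD, n = 4), an interval from -0.14 to 0.06 and an adjusted p of 0.457. Its control log2 levels of 9.63, 9.75, 9.90 and 9.57 overlapped with the treated levels of 9.60, 9.77, 9.74 and 9.57. Gata5 minus Gata6 was 0.10 ± 0.07 and above 0 on 4 of 4 arrays, on array 3 by only 1e-04 (exact sign-flip permutation p = 0.125). With the processed signals it was 0.11 ± 0.13 (exact sign-flip permutation p = 0.375), and on array 3 Gata5 lay below Gata6 (-0.15 against -0.10). The identity of the Gata5 signal is less sure than that of the other members. The probe, at chr2:180059867-180059926 of mm9 on the minus strand, shares runs of 16 or more bases with 47 promoter windows of other genes among the 32851 windows in the RefSeq promoter table, on either strand. The other 9 member probes share such a run with 0 to 2 windows, and 0.804% of all probes on the array reach the number of the Gata5 probe. The 30 bases below show the stretch, with the run that recurs most often in capitals, found in 35 of the windows.
Gata5: tgtagctCTGGCTGTCCTGGAACtcattat
Such runs recur in interspersed repeats of the mouse genome. Whether transcripts of other loci add to this signal was not tested.

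Zfpm1 has 3 probes on the array, and these did not behave alike. The probe that stands for the gene, at chr8:124861092-124861151 of mm9 on the plus strand, is the brightest of the 3, and a further probe overlaps it by 55 bases. Both hold the polyadenylation hexamer AATAAA, as do 12.6% of all probes. The remaining probe lies downstream of the brightest one with 201 bases between them, at chr8:124861353-124861412, and was designed against a predicted transcript model. The printed stretches show the shared upstream sequence, with the hexamer in capitals, and the middle of the downstream probe.
Zfpm1 upstream: cccttgacacttAATAAAgacattcggtgt
Zfpm1 downstream: cttgttcttgctgagtcttcgagaaagagg
The upstream probe that stands for the gene gave a log2 ratio of -0.05, -0.23, -0.16 and 0.02 on arrays 1 to 4. Its mean was -0.11 ± 0.11 (SD, n = 4), with an interval from -0.24 to 0.02 and an adjusted p of 0.176. The overlapping probe gave -0.10 ± 0.11 and an adjusted p of 0.206 over all probes. Both pairs of groups overlapped in level.

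The downstream Zfpm1 probe fell, with a log2 ratio of -0.18, -0.56, -0.32 and -0.37 on arrays 1 to 4. Its mean was -0.36 ± 0.16 (SD, n = 4), its interval -0.48 to -0.24, and its limma adjusted p over all probes 0.00277. The normalised log2 level was 10.01, 10.55, 10.49 and 10.00 in the control pools and 9.82, 9.99, 10.17 and 9.63 in the IWP-2 pools. The groups overlapped, but on each array the treated channel was the lower one. The downstream ratio lay below that of the brightest probe on 4 of 4 arrays, by -0.25 ± 0.13 on average (exact sign-flip permutation p = 0.125, the smallest possible). Averaging all 3 probes in place of taking the brightest gave Zfpm1 a change of -0.19 with an adjusted p of 0.0316, so the call on the gene turns on the choice of probe. Which Zfpm1 transcripts end between the probes was not tested.

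Zfpm2 is read by a pair of probes that overlap by 7 bases, the brighter of them at chr15:40935115-40935174 of mm9 on the plus strand. Its log2 ratio was 0.09, 0.03, 0.03 and 0.25 on arrays 1 to 4, with a mean of 0.10 ± 0.10 (SD, n = 4), an interval from -0.02 to 0.22 and an adjusted p of 0.164. The other probe gave 0.10, -0.02, 0.05 and 0.23, so array 4 was highest for both probes, while on array 2 their small ratios differed in sign. The normalised log2 level of the brighter probe was 12.26, 12.25, 12.25 and 12.11 in the control pools and 12.35, 12.29, 12.27 and 12.36 in the IWP-2 pools. These groups did not overlap, yet the change did not pass the test. Zfpm1 minus Zfpm2 was -0.21 ± 0.05 and negative on 4 of 4 arrays (exact sign-flip permutation p = 0.125).

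**Figure D2:**
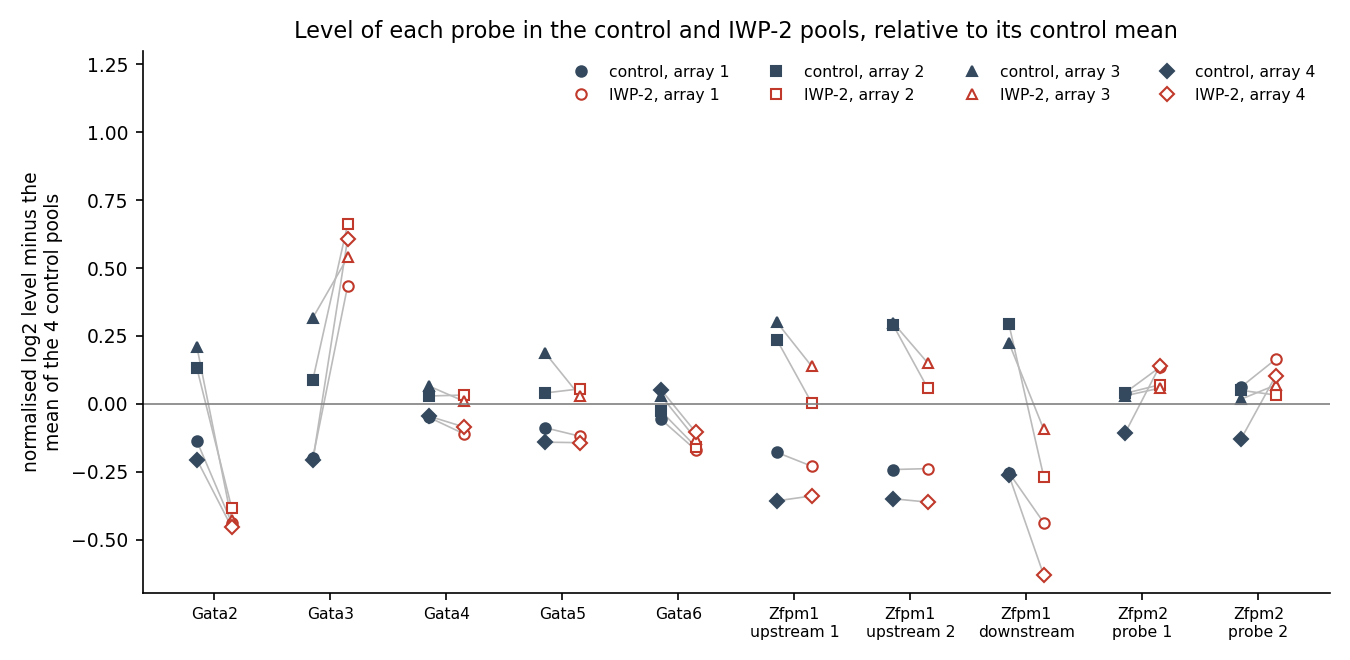
Normalised log2 level of each probe in the 4 control pools (filled) and 4 IWP-2 pools (open), drawn relative to the mean of that probe's control pools, with a line joining the channels of an array. Control and IWP-2 pools did not overlap for Gata2, Gata3, Gata6 and Zfpm2 probe 1, the brighter of its pair. How many of all probes tested separate in this way was not counted. The Gata2 values lay closer together in the treated than in the control pools, as did those of every other probe except that of Gata4.

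The control pools also differed among themselves. Gata2, Gata3, Gata4, Gata5 and all 3 Zfpm1 probes had their highest control levels on arrays 2 and 3, which differ in dye order. For the Zfpm1 probe that stands for the gene these were 13.34 and 13.41, against 12.93 and 12.75 on arrays 1 and 4. The treated channel of this probe had the same 2 arrays highest, with 12.88, 13.11, 13.25 and 12.77 on arrays 1 to 4. That was also so for the other Zfpm1 probes, Gata4 and Gata5, and narrowly for Gata2, but not for Gata3. For those members the difference was thus not particular to the control pools. Gata6 and Zfpm2 did not share this order, with control SDs of 0.05 and 0.07 on the log2 scale. The cause of the difference between pools was not tested.

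GATA proteins work with partners, and these and the other genes with GATA-type fingers were read on the same arrays. Of 6 genes with related zinc fingers (Gata1, Trps1, Gatad1, Gatad2a, Gatad2b and Zglp1), 0 passed the limma test in either direction, and their median was -0.01. At an unadjusted p of 0.05 the count was also 0, the lowest p being 0.14 for Gata1, the erythroid GATA factor, at 0.15 ± 0.25. Of 20 cofactors, 1 was lower and 3 were higher, with a median of 0.00, which is no larger a share than the 15% and 18.1% of all genes. Hdac2, a histone deacetylase of the NuRD complex that FOG1 recruits, fell by 0.19 ± 0.06 on the log2 scale (adjusted p = 0.0159). Mbd2, a methyl-CpG binding subunit of NuRD, rose by 0.24 ± 0.17 (adjusted p = 0.0165). Tal1, a basic helix-loop-helix factor that works with GATA factors in blood and endothelium, rose by 0.26 ± 0.14 (adjusted p = 0.0167). Nr2f2, a nuclear receptor bound by FOG2, rose by 0.28 ± 0.18 (adjusted p = 0.0111). The remaining 16 cofactors, which include both CtBP genes, Ldb1, Lmo4, Ep300 and Crebbp, did not pass.

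Gata3 acts among the regulators of the nephric duct and ureteric bud, and most of these rose as well. Of 9 such genes 7 were higher, where 18.1% of all genes were, and 1 was lower, where 15% were. Their median was 0.20, below the 0.30 of the 7 epithelium markers, so the rise was not particular to these regulators. Emx2, a homeobox gene needed in the ureteric bud, rose by 0.63 ± 0.15 (adjusted p = 0.000408). Wnt11, a WNT ligand of bud tips, rose by 0.55 ± 0.09 (adjusted p = 0.000324). Pax8, a paired-box factor of the duct, rose by 0.40 ± 0.25 and Ret, the GDNF receptor, by 0.28 ± 0.09 (adjusted p of 0.0186 and 0.00651). Sall4, a zinc finger factor, was the gene that fell (-0.20 ± 0.14, adjusted p = 0.0346), and Pax2 did not pass (-0.05 ± 0.11, adjusted p = 0.468).

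The 7 epithelium markers were all higher with IWP-2, between 0.24 and 0.34, with a median of 0.30, and their summed log2 level ran from 17.46 to 17.57 in the control pools and from 17.65 to 17.96 in the IWP-2 pools. By array their median was 0.22, 0.39, 0.41 and 0.29, highest on array 3, where Gata3 rose least. Gata3 minus the median of these markers was 0.42, 0.18, -0.18 and 0.52 on arrays 1 to 4. Gata3 thus rose by more than the epithelium markers on 3 of 4 arrays and by less on array 3, with a mean of 0.23 ± 0.31 that is smaller than its SD. Sympathetic neurons also express Gata2 and Gata3, and 4 of 8 of their markers were higher and 0 lower (median 0.19), with a summed log2 level of 15.86 to 16.36 in the control and 16.11 to 16.59 in the IWP-2 pools. Of the 4 arrays, array 1 had the highest median for the neuron markers (0.48) and array 4 the lowest (0.05), whereas Gata3 was highest on array 4. All 7 epithelium and all 8 neuron markers stood well above background in each control pool. The part of either cell type in the Gata3 change was not tested.

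Gata2 is also known from endothelium, blood cell precursors and mast cells. The lists read here were endothelium, erythroid cells with their globin genes, and mast cells together with macrophages. Blood cell precursors had no list of their own, and mast cells were covered only in part. Of the markers in these lists 0 were called lower, where 15% of all genes were lower and 18.1% higher. Of 7 endothelium markers 4 were higher and 0 lower (median 0.15, summed log2 level 15.72 to 15.93 in control and 15.91 to 16.14 in IWP-2 pools). Of 9 erythroid markers 4 were higher and 0 lower (median 0.16, 18.13 to 18.74 and 18.64 to 18.82). Of 6 mast cell and macrophage markers tested 4 were higher and 0 lower (median 0.25, 13.76 to 14.11 and 14.09 to 14.38). The erythroid median was 0.23 and 0.29 on arrays 1 and 3 (treated red) but 0.06 and -0.03 on arrays 2 and 4 (treated green). Hbb-y, called higher, gave 0.61, -0.10, 0.73 and -0.14 on arrays 1 to 4. Its SD was 0.46 but its limma standard error only 0.04, since the dye term takes up a difference between the dye orders. On array 4 the erythroid median was thus below 0, as Gata2 was. Of 8 mesenchyme markers 2 were lower (Tbx18 and Tcf21, transcription factors of ureteric and stromal mesenchyme) and 1 higher (Pdgfrb), with a median of 0.02 and a summed log2 level of 18.99 to 19.12 and 19.01 to 19.20. The part of any cell type in the Gata2 change was not tested.

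Of 10 smooth muscle genes 6 were lower and 1 higher, where 15% and 18.1% of all genes were, with a median of -0.32. The higher gene was Smtn, at the edge of the threshold with a limma adjusted p of 0.0487. The regulators Srf, Mkl1 and Mkl2 did not pass (0.01, 0.14 and 0.12). The examples that follow are the 4 largest changes. Cnn1, an actin-binding protein of contractile cells, changed by -0.98 ± 0.29, and Actg2, the enteric actin, by -0.87 ± 0.38 (adjusted p of 0.000885 and 0.00388). Tagln, an early smooth muscle marker, changed by -0.73 ± 0.23 (adjusted p = 0.00103). Myocd, the coactivator that starts the smooth muscle programme, changed by -0.58 ± 0.20 (adjusted p = 0.000419). The change of Gata6 was -0.14 and that of Gata2 -0.43, and their difference from the smooth muscle genes was not tested. Whether the Gata6 change depends on the share of smooth muscle precursors in the explants was not tested.

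Gata4 and its partner Zfpm2 are marks of gonad and heart, and per the study's methods the dissected ureters were inspected by eye to leave out other tissue. Of 7 gonad and adrenal markers tested (of 8) 0 were lower and 1 higher (median -0.01), with a summed log2 level of 12.83 to 13.20 in the control and 12.77 to 13.84 in the IWP-2 pools. Of 6 heart muscle markers tested (of 7) 2 were lower and 1 higher (median -0.04, 14.33 to 14.62 and 13.30 to 13.66). The genes past the test were Nr5a1 in the first list and Actc1, Myl4 and Nppa in the second. Actc1 changed by -1.01 ± 0.23, against -0.25 ± 0.09 for Myl4 and 0.20 ± 0.10 for Nppa. The lower summed level of the heart muscle list is therefore that of Actc1 and does not describe the list as a whole. The genes named in this paragraph and the mesenchyme markers named above were singled out after their values were seen.

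**Figure D3:**
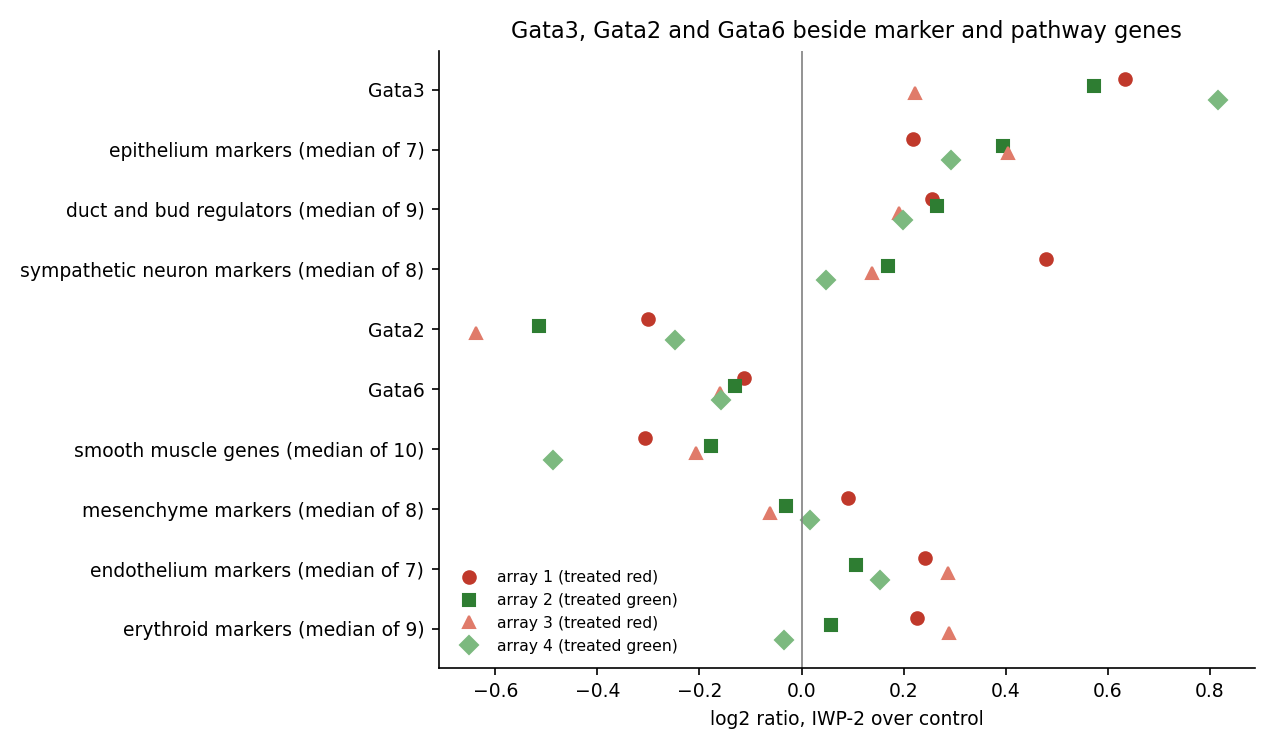
Log2 ratio of IWP-2 over control on each array for Gata3, Gata2 and Gata6, beside the median of the tested genes of 7 lists. Gata3 and the epithelium, duct, sympathetic neuron and endothelium lists lay above 0 on all 4 arrays. Gata2, Gata6 and the smooth muscle list lay below 0 on all 4.

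The genes whose 4 log2 ratios were nearest to those of a member, by Euclidean distance over the 4 arrays among 16167 other named genes, are given as a description. For Gata2 these were Col2a1, a fibrillar collagen, Dact1, a modulator of WNT signalling, and Mylk, the myosin light chain kinase of smooth muscle, at distances of 0.10, 0.13 and 0.13, and 20 genes lay within 0.2. For Gata3 they were Celsr1, a planar polarity cadherin, Kctd12 and Parp4 (0.13, 0.18 and 0.19), and 4 genes lay within 0.2. For Gata6 they were Nup62, a nuclear pore protein, Timm22 and Ppih (0.03, 0.04 and 0.04), but 1717 genes lay within 0.2, so a change of this size and evenness was common on these arrays.

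The RefSeq promoter table (GRCm38.p6) holds 4 of the 7 genes, Gata2 with a pair of start sites and Gata3, Gata5 and Zfpm1 with 1 each. Their 250 bases upstream of the start were searched on both strands for the TCF/LEF motif (CTTTGAA or CTTTGAT), through which β-catenin acts, and for GATA motifs (AGATAA or TGATAA, or either of these with G as the last base). None of the 5 windows holds either, where 7.48% and 26.5% of the 32851 windows do. The 5 windows are rich in G and C, with 67.2% to 74.0% of their bases.

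The study's own filter for the arrays keeps genes brighter than 100 that differ by more than 2-fold. Its results describe this for a pair of arrays per stage, whereas its methods give n = 4 at E12.5. The filter was applied here to the processed signals, with the brighter channel over 100 and the change the same way on all 4 arrays. It passed 104 lower and 22 higher of 29924 gene names, together 0.421%, and 0 of the 7 members. These counts were made here and differ from those the study reports, which may rest on fewer arrays. At a limit of 1.5-fold it still passed 0 members. Gata3 on array 4, at 0.82 on the log2 scale, was the largest single ratio of any member.

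**Figure D4:**
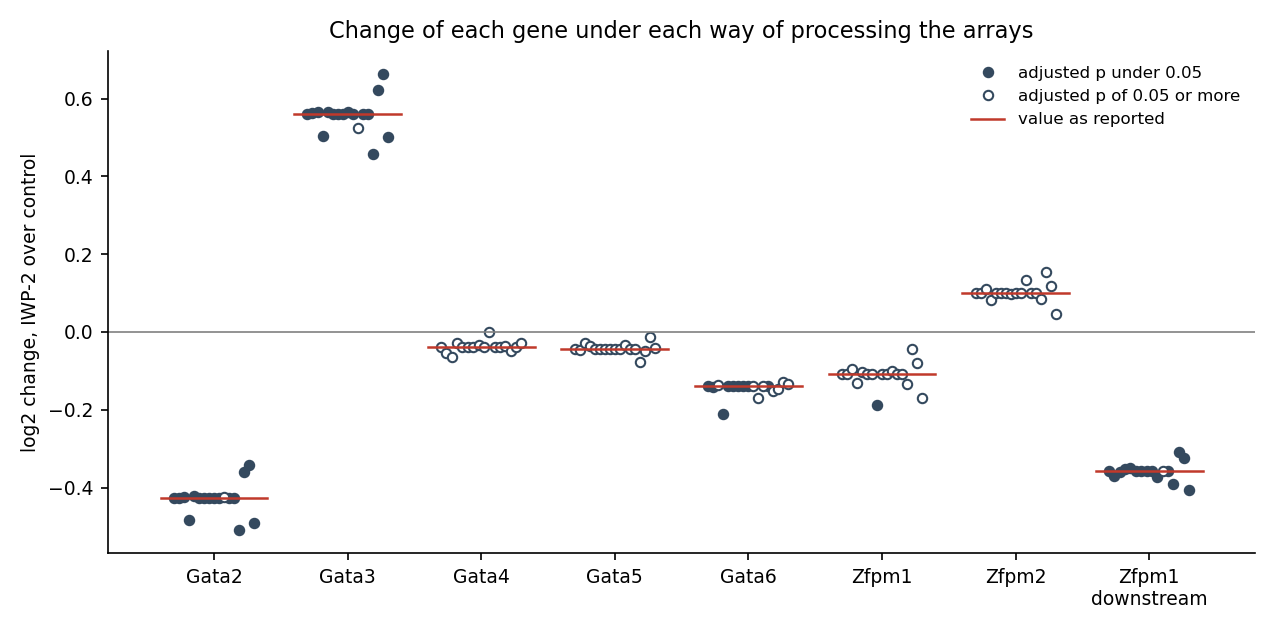
Log2 change of each gene, and of the downstream Zfpm1 probe, as reported (red line) and as computed under each alternative processing (points), filled where the limma adjusted p is under 0.05. Gata2 and Gata3 kept their sign throughout and were past the threshold under 15 of 16 alternatives, and Gata6 under 8 of 16.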

How the data were processed

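The authors scanned the arrays and deposited, per spot, the mean intensity, the median local background and a processed intensity from Agilent Feature Extraction 10.7.3.1, and a log10 ratio that was used only to check direction. The series table deposited by the authors holds a score, 1 signed fold change per probe and array, with its centring not stated, used as an alternative. Mean intensities were corrected with normexp (offset 50) and normalised by loess within arrays (span 0.3) in limma 3.58.1 (R 4.3.3), with control spots given no weight. Outlier spots (3.01% to 3.38% of gene spots) were left out, the 4 spots of a probe averaged, and the brightest probe taken for each gene. Probes well above background on all 4 arrays of a group were tested with lmFit and eBayes and a dye term, two-sided. The low-intensity offset understates changes of dim probes. Levels are log2 channel values after Aquantile normalisation and are compared within a probe. The methods name no test for the arrays. Dye order is balanced, and all 4 arrays lie on 1 slide and 1 scan. The series table's direction was set by its correlation with the processed ratios (r of 0.98 to 0.99). Gene names are those of the array design. The members, the 13 lists with 114 genes and the naming rule (all members; cofactors and relatives past the test; up to 4 examples for the duct and smooth muscle lists; the 3 nearest genes) were chosen with earlier results of these data known. Tests were checked on simulated data.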

Additional observations from a re-analysis of the deposited data

How the results depend on the processing

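Across 16 alternatives no member reversed (Gata4 was at 0 in the authors' fold changes and left the test under a minimum signal of 100), and Gata2 (-0.51 to -0.34), Gata3 (0.46 to 0.66) and Gata6 (-0.21 to -0.13) kept their direction. With the series table's fold changes, limma called 0 members lower and 0 higher (Gata2 adjusted p 0.121, Gata3 0.0803), against 2 lower and 1 higher at an unadjusted p of 0.05, and over all genes 2050 were lower and 1833 higher. With the 8 channels as separate samples and no replicate block, 1 member was lower, and 2069 genes were lower and 2040 higher, and the downstream Zfpm1 probe lost its call (adjusted p 0.157). With the processed signals, and without the dye term, 1 member was lower, since Gata6 lost its call. Leaving out each array in turn gave 1 to 1 members lower and 2180 to 2813 genes lower, the fewest without replicate 3. Elsewhere the counts stayed within 1.5 times. A limit of 1.5-fold in the study's filter passed 314 genes. The alternatives moved the median of all genes by at most 0.0121. Averaging probes called Zfpm1. Slide or scan as a block was not run, since all arrays share both. The number of arrays limits the precision, and Gata4 lies close to background.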

Other observations

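Gata5os, a gene on the strand opposite to Gata5, was singled out after its values were seen. Its probe lies at chr2:180075280-180075339 of mm9 on the plus strand, 15353 bases from the Gata5 probe. It gave a log2 ratio of IWP-2 over control of -0.97, -0.90, -1.15 and -0.99 on arrays 1 to 4, with a mean of -1.003 ± 0.10 (SD, n = 4) and a limma adjusted p of 5.199e-05. The Gata5 probe, which shares runs with other loci, gave -0.04 ± 0.08. The relation between the 2 transcripts was not tested.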
